A study of Homo sapiens with 3 samples.

Results

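The 3p arms of the let-7 microRNA family were examined in 3 cancer cell lines and set against the 5p arms cut from the same hairpins. The members were taken by name, with no measured value in the rule: hsa-let-7a-3p, hsa-let-7a-2-3p, hsa-let-7b-3p, hsa-let-7c-3p, hsa-let-7d-3p, hsa-let-7e-3p, hsa-let-7f-1-3p, hsa-let-7f-2-3p, hsa-let-7g-3p and hsa-let-7i-3p (the prefix hsa, for human, is left out from here on), which are 10 of the 2588 mature miRNA names listed in the data. Each was compared, within a library, with the 5p arm of its let-7 letter, which gave 8 letters, since a and f each have a pair of differently named 3p arms. The samples were parental cells of C643 (thyroid cancer), ES-2 (ovarian cancer) and Huh-7 (liver cancer), all grown untreated in DMEM with fetal bovine serum and harvested at the same interval after seeding. Each line was represented by 1 small RNA library, so no value has a replicate check, and every interval given covers counting error only. In bulk RNA, fewer cells that hold an arm and less of it per cell cannot be told apart.

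A let-7 gene is transcribed into a hairpin that the nucleases Drosha and Dicer trim to a duplex of a 5p and a 3p arm. Usually 1 arm is loaded into an Argonaute protein and kept, while the other, the passenger, is degraded. The 5p arms are the well known tumour suppressive let-7 miRNAs, which repress growth genes such as HMGA2 and RAS genes, and the RNA-binding proteins LIN28A and LIN28B block their maturation by holding the hairpin loop. Counts of the rare 3p arm read the same hairpins a further time and, for the letters a and f, split genes whose 5p arms are identical.

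The 3p sequences are shown because they carry this split and differ in seed. They were taken from RefSeq (GRCh38.p14), which matched 9 of the 10 names, are written 5′ to 3′, and have the seed, bases 2 to 8, in capitals.
let-7a-3p: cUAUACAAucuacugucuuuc
let-7b-3p: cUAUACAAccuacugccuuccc
let-7f-1-3p: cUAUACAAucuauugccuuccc
let-7a-2-3p: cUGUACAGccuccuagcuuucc
let-7g-3p: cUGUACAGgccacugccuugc
let-7c-3p: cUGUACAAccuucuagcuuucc
let-7d-3p: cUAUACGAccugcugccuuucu
let-7e-3p: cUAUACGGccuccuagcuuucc
let-7i-3p: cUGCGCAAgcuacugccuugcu
These 9 arms have 6 different seeds. The seed UAUACAA was shared by let-7a-3p, let-7b-3p and let-7f-1-3p, and UGUACAG by let-7a-2-3p and let-7g-3p, whereas let-7c-3p, let-7d-3p, let-7e-3p and let-7i-3p each had a seed of their own. Aligned from their 5′ ends, the 36 pairs of 3p arms differed at 2 to 11 positions, with a median of 6.

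The 5p arms are far more alike, and all 8 share the seed GAGGUAG. let-7a-5p, the most abundant of them, is shown with let-7c-5p, which is 1 base away from it, and let-7d-5p, the only 1 with another first base, again with the seed in capitals.
let-7a-5p: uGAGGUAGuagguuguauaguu
let-7c-5p: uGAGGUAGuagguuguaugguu
let-7d-5p: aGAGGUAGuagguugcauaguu
The 28 pairs of 5p arms differed at 1 to 6 positions, with a median of 3. let-7a-5p and let-7c-5p differ by A19G alone, and let-7a-5p and let-7d-5p by U1A and U16C (positions counted from the 5′ end, the base of let-7a-5p first). All 9 of the 3p arms with a sequence begin with C, 7 of the 5p arms begin with U, and let-7d-5p begins with A.

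The hairpins of let-7d, whose arms were the most evenly represented, and of let-7g, whose 3p arm was the rarest beside its 5p arm in C643, are shown with both mature arms in capitals (RefSeq, GRCh38.p14). MIRLET7D lies on the plus strand at chr9:94178834-94178920, in an intron of the long non-coding RNA AL158152.2. MIRLET7G lies on the minus strand at chr3:52268278-52268361, in an intron of WDR82.
MIRLET7D: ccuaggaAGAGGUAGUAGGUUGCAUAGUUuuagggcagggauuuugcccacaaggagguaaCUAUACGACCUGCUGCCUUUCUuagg
MIRLET7G: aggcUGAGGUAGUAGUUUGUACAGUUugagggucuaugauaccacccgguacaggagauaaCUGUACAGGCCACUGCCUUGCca
MIRLET7A1 and MIRLET7F1 lie near MIRLET7D in the same non-coding RNA. MIRLET7A2 (chromosome 11) lies in an intron of MIR100HG, MIRLET7C (chromosome 21) in an intron of MIR99AHG, MIRLET7E (chromosome 19) in an intron of SPACA6, MIRLET7F2 (chromosome X) in an intron of HUWE1 and MIRLET7I (chromosome 12) in an intron of AC048341.1. MIRLET7A3 and MIRLET7B (chromosome 22) lie in exons of MIRLET7BHG. The host gene of each hairpin was read from GENCODE v29.

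The recovered depth was 8183100 miRNA reads for C643, 1663181 for ES-2 and 2173587 for Huh-7, and levels are given as reads per 1000000 of these (RPM). A name with no read could still have stood at up to 0.367, 1.80 or 1.38 RPM, the level of 3 reads in the respective library. C643 was deposited in a table separate from ES-2 and Huh-7, so its levels are set beside theirs only as shares of its own library, and ratios of arms do not depend on the scaling. The 3 listed hepatocyte miRNAs all had reads in Huh-7 and in C643, and 1 of them had reads in ES-2. They made up 13.8% of the Huh-7 reads, beside 0.00595% for C643 and 0.000361% for ES-2. The 5 epithelial miRNAs held 0.382%, 0.00523% and 0.00125% for Huh-7, ES-2 and C643, and the 5 blood cell miRNAs held 4.60e-05%, 0.0480% and 3.67e-05% in that order. For thyroid and ovary no defining miRNA was listed.

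The C643 library held reads of all 10 of the let-7 3p arms, the ES-2 library of 9 and the Huh-7 library of 4. Such counts depend on depth, which was highest for C643, and they were not set beside the detection of all names. Together the let-7 3p arms held 18177 reads for C643, 1286 for ES-2 and 62 for Huh-7. This was 0.222% (Wilson 95% interval 0.219% to 0.225%), 0.0773% (0.0732% to 0.0817%) and 0.00285% (0.00223% to 0.00366%) of all miRNA reads. The 8 let-7 5p arms held 29.7%, 19.9% and 1.38%. The summed 3p arms were thus 2.87-fold higher in C643 than in ES-2 (2.71 to 3.04), and 27.1-fold lower in Huh-7 than in ES-2 (21.01 to 35.0). The 5p sum differed by 1.49-fold and 14.4-fold in the same comparisons. The lines stood in the same order by either sum, and the differences between the sums were larger for the 3p arms. Between ES-2 and Huh-7 this rested on let-7d. With let-7d left out, 3p reads were 0.159% of the reads of both arms in ES-2 (0.146% to 0.173%). In Huh-7 they were 0.176% (0.135% to 0.230%), so the larger 3p difference was not kept. Between C643, at 0.336%, and ES-2 it was kept.

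**Figure D1:**
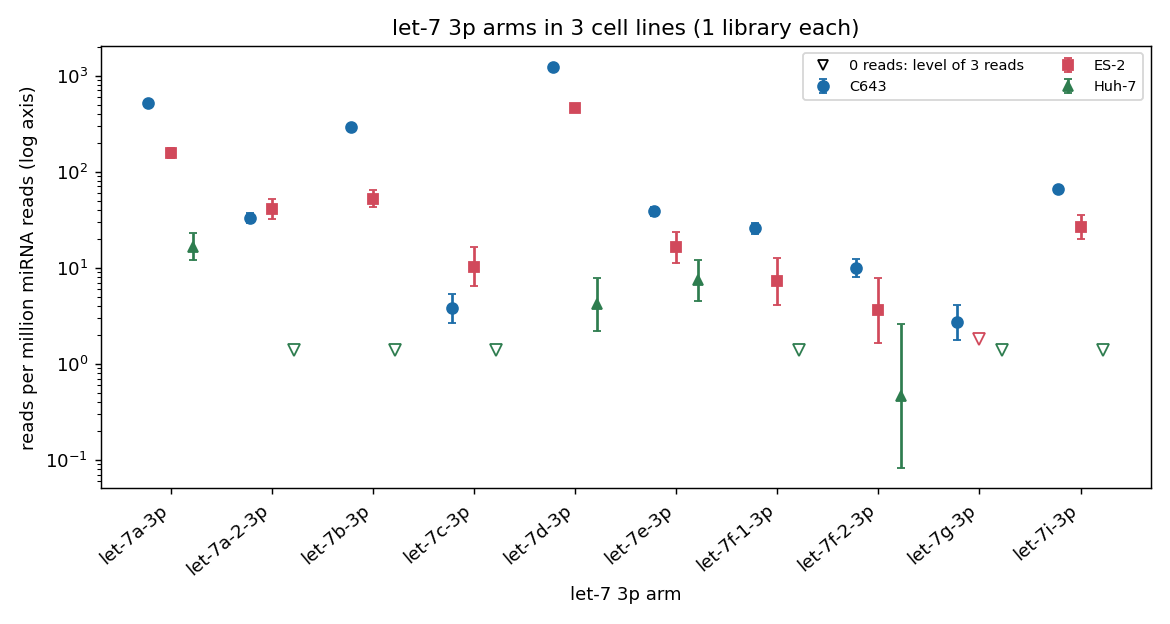
Level of each let-7 3p arm in reads per 1000000 miRNA reads (RPM, log axis) in C643 (circles), ES-2 (squares) and Huh-7 (triangles), 1 library each, with Wilson 95% intervals. Open triangles stand for 0 reads and are drawn at the level of 3 reads. In Huh-7, 6 arms had 0 reads, 1 of which, let-7g-3p, had 0 reads in ES-2 as well.

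let-7d-3p was the most abundant 3p arm in C643 and ES-2. It stood at 1233 RPM for C643, 459 for ES-2 and 4.14 for Huh-7, from 10090, 764 and 9 reads. It made up 55.5% of the let-7 3p reads in C643 (54.8% to 56.2%) and 59.4% in ES-2 (56.7% to 62.1%), but 14.5% in Huh-7 (7.83% to 25.3%). By contrast, let-7d-5p gave 1.21%, 1.003% and 0.120% of the 5p reads. The arm that led the 3p sum therefore came from a letter that was minor among the 5p arms.

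let-7a-3p, which is identical in MIRLET7A1 and MIRLET7A3, came next, at 518 RPM for C643, 157 for ES-2 and 16.6 for Huh-7. It was the leading let-7 3p arm of Huh-7, with 36 of the 62 reads (58.1%, 45.7% to 69.5%). Its reads were listed at chromosome 9 and chromosome 22 in nearly equal numbers, 2149 and 2090 for C643, 139 and 122 for ES-2 and 20 and 16 for Huh-7. As the sequences are the same, these rows do not separate the hairpins. let-7a-2-3p, which comes from MIRLET7A2 only, stood at 32.5 RPM in C643 (28.8 to 36.7) and 40.9 in ES-2 (32.3 to 51.8), with no read in Huh-7.

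let-7b-3p, from the hairpin next to MIRLET7A3, stood at 292 RPM in C643 and 52.3 in ES-2 and had no read in Huh-7. let-7i-3p, from chromosome 12, stood at 65.1 in C643 and 26.5 in ES-2, again with no read in Huh-7. let-7e-3p, from the cluster with miR-99b and miR-125a, was the only arm besides let-7a-3p and let-7d-3p with more than 1 read in Huh-7. Its level was 38.6 RPM for C643, 16.2 for ES-2 and 7.36 for Huh-7, from 316, 27 and 16 reads. This was the smallest gap between ES-2 and Huh-7 among the 3p arms with reads in both lines, 2.21-fold with an interval of 1.19 to 4.09.

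The remaining arms were rare in every library. let-7f-1-3p, from MIRLET7F1 near MIRLET7A1, had 211 reads for C643, 12 for ES-2 and 0 for Huh-7. let-7f-2-3p, from the X chromosome, had 81, 6 and 1. let-7c-3p had 31, 17 and 0, which made it the only 3p arm with a higher level in ES-2 (10.2 RPM, 6.38 to 16.4) than in C643 (3.79, 2.67 to 5.38) beyond the counting intervals. let-7g-3p had 22 reads in C643 and none in the other lines, although let-7g-5p had 158710, 25519 and 806 reads.

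Mature arms are 21 or 22 bases long, so levels were compared between arms without scaling to length. In C643 the order was d, a, b, i, e, a-2, f-1, f-2, c and g. The intervals of neighbours overlapped there for e and a-2, for a-2 and f-1 and for c and g. In ES-2 the order was d, a, b, a-2, i, e, c, f-1, f-2 and g, and only d and a lay apart from their next lower neighbour, since from b downwards each interval overlapped with the next. In Huh-7 the interval of let-7a-3p (11.96 to 22.9 RPM) lay just above that of let-7e-3p (4.53 to 11.96), the ends being equal after rounding, and let-7d-3p (2.18 to 7.87) overlapped with let-7e-3p.

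Between C643 and ES-2 the fold differed from arm to arm. Over the 348 names with 10 or more RPM in either library, the median log2 difference was 0.39, towards C643. let-7b-3p differed most, by 5.58-fold (4.50 to 6.91), followed by let-7f-1-3p (3.57-fold, 1.998 to 6.39) and let-7a-3p (3.30-fold, 2.91 to 3.74). For let-7a-2-3p the ratio of C643 to ES-2 was 0.795 (0.609 to 1.04) and for let-7c-3p it was 0.371 (0.205 to 0.670). let-7g-3p was at least 1.49-fold higher in C643, against the level of 3 reads in ES-2 and without the counting error of the C643 reads. The 5p arms of the same letters ranged from 0.434 for let-7c-5p to 4.33 for let-7b-5p, so c and b stood at the ends of both orders.

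Against a limit of 4-fold on the log2(RPM + 1) scale, over names with 10 or more RPM in either library, 8 of the 10 arms could be compared between C643 and ES-2. None was lower in C643, where 9.48% of the 348 names tested were, and 1, let-7b-3p, was higher, where 19.5% were. The median log2 difference of the 8 arms was 1.35, beside 0.39 over all names tested. The count of let-7 3p arms beyond 4-fold was therefore not above that of the miRNAs as a whole in this comparison.

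Huh-7 was compared with both other lines by the same limit. Of the 7 arms that could be compared with ES-2, 6 were at least 4-fold lower in Huh-7, beside 14.9% of 437 names, and against C643 all 7 were, beside 17.4% of 442 names. These arms passed the minimum level through ES-2 or C643, since let-7a-3p was the only 1 above 10 RPM in Huh-7. The median log2 difference was -4.78 against ES-2 (1.65 over all names tested) and -5.07 against C643 (1.04 over all names). Over names with 10 or more RPM in both lines, a stricter limit, the median was higher in Huh-7 by 0.999 (log2) than in ES-2 and by 0.50 than in C643. In C643 against ES-2 that median was 0.22. Each of the let-7 3p arms compared was lower in Huh-7. For all of them but let-7a-3p this direction was fixed by the minimum level, as they were under 10 RPM in Huh-7 and passed through the other line. The names tested as a whole include those that passed through Huh-7, and 181 of the 437 were at least 4-fold higher there than in ES-2. The counts and medians of the arms and of all names are therefore not alike, and no conclusion is drawn from their contrast. let-7e-3p was the arm within 4-fold of ES-2, with a log2 difference of -1.04.

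The size of the gap in Huh-7 differed between members. let-7d-3p was 111-fold lower than in ES-2 (57.5 to 214) and 298-fold lower than in C643 (155 to 572), and let-7a-3p was 9.47-fold (6.69 to 13.4) and 31.3-fold (22.5 to 43.4) lower. Against the level of 3 reads, let-7b-3p was at least 37.9-fold lower than in ES-2, let-7a-2-3p at least 29.6-fold, let-7i-3p at least 19.2-fold, let-7c-3p at least 7.41-fold and let-7f-1-3p at least 5.23-fold. These limits take the ES-2 reads as counted and leave out their counting error. let-7f-2-3p, with 6 ES-2 reads and 1 Huh-7 read, gave a ratio of 7.84 (exact interval 0.951 to 361). The 5p arms, which had more reads, spread widely too. let-7i-5p was 1875-fold lower in Huh-7 than in ES-2, let-7b-5p 243-fold, let-7d-5p 121-fold, let-7g-5p 41.4-fold and let-7a-5p 24.5-fold. let-7f-5p was 5.85-fold lower, let-7c-5p 2.06-fold and let-7e-5p 1.16-fold. In either arm the let-7e letter was the least different between ES-2 and Huh-7 among those with a fold estimate.

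The 3p arm was then expressed as a percent of both arms of its letter, which compares products of the same hairpins inside 1 library. Over all 8 letters it was 0.742% for C643 (0.732% to 0.753%), 0.387% for ES-2 (0.367% to 0.409%) and 0.206% for Huh-7 (0.161% to 0.264%). In C643 and ES-2 most of these 3p reads were let-7d-3p. Without let-7d the percent was 0.336% for C643, 0.159% for ES-2 (0.146% to 0.173%) and 0.176% for Huh-7 (0.135% to 0.230%), with overlapping intervals for the last pair. For comparison, the 3p arm of miR-21, the miRNA the study was about, was 0.637%, 0.231% and 0.164% of its pair.

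**Figure D2:**
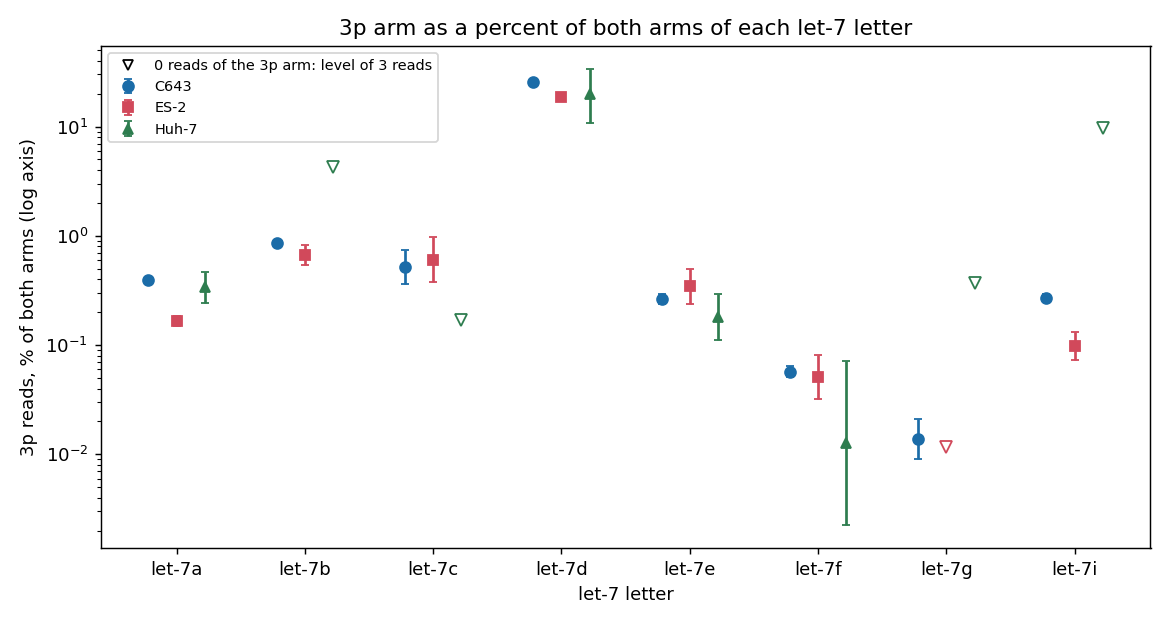
Reads of the 3p arm as a percent of the reads of both arms (log axis) for the 8 let-7 letters in C643, ES-2 and Huh-7, with Wilson 95% intervals. Open triangles stand for 0 reads of the 3p arm and are drawn at 3 reads. let-7d lies between 18.7% and 25.6%, and every other letter with a 3p read lies under 1%.

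let-7d was the exception among the letters. Its 3p arm gave 25.6% of the let-7d reads in C643 (25.1% to 26.0%), 18.7% in ES-2 (17.5% to 19.9%) and 9 of 45 reads in Huh-7, which is 20% (10.9% to 33.8%). Between ES-2 and Huh-7 its 3p level differed by 111-fold, while its ratio of 3p to 5p reads in Huh-7 was 1.09 times that of ES-2 (0.521 to 2.26). The other 7 letters lay between 0.0139% and 0.853% in C643.

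let-7b had the next highest percent, 0.853% in C643 and 0.664% in ES-2 (0.538% to 0.818%). let-7c followed with 0.518% (0.365% to 0.734%) and 0.605% (0.378% to 0.967%), let-7a with 0.397% and 0.165%, let-7e with 0.265% and 0.344%, and let-7i with 0.269% and 0.0988%. The lowest were let-7f, with 0.0571% and 0.0509%, and let-7g, with 0.0139% in C643 (0.00915% to 0.0210%) and 0 of 25519 reads in ES-2, which allows up to 0.0118%. In C643, 1 read of let-7g-3p was therefore found for every 7214 reads of let-7g-5p, while for let-7d the ratio was 2.91 reads of the 5p arm to 1 of the 3p arm.

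In Huh-7 the percent could be measured for few letters. It was 0.338% for let-7a (36 reads, 0.244% to 0.468%), 0.181% for let-7e (16 reads, 0.111% to 0.293%) and 0.0127% for let-7f (1 read, 0.00223% to 0.0717%). For b, g and i no 3p read was found among 70, 806 and 31 reads, which allows up to 4.29%, 0.372% and 9.68%. At the arm ratio of ES-2, the 5p reads of let-7b and let-7i in Huh-7 would have come with 0.468 and 0.0307 reads of the 3p arm, so their absence was not detectable as a difference at this depth.

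let-7c was different, as its 5p arm stayed abundant in Huh-7. let-7c-5p stood at 727 RPM for C643, 1678 for ES-2 and 813 for Huh-7, from 5953, 2791 and 1768 reads. let-7c-3p had 31 and 17 reads in C643 and ES-2, and at their arm ratios the 1768 reads of let-7c-5p in Huh-7 would have come with 9.21 and 10.8 reads of the 3p arm. None was found, which allows up to 0.170% of both arms. let-7c-5p differs from let-7a-5p by 1 base, and its reads were 0.526% of those of let-7a-5p for C643, 1.41% for ES-2 and 16.7% for Huh-7. How many let-7c-5p reads stem from let-7a-5p was not tested.

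The balance of the arms also differed between C643 and ES-2. Per 5p read, let-7i had 2.72 times as many 3p reads in C643 as in ES-2 (2.002 to 3.70), let-7a 2.40 times (2.15 to 2.69), let-7d 1.49 times (1.38 to 1.62) and let-7b 1.29 times (1.04 to 1.60). The intervals for let-7c (0.855, 0.472 to 1.55), let-7e (0.770, 0.520 to 1.142) and let-7f (1.12, 0.697 to 1.81) included 1. Over the 118 miRNA pairs with at least 100 reads in each library, the median log2 shift was 0.31, towards the 3p arm in C643. Of these pairs, 37 shifted by at least 2-fold that way and 26 the other way. For let-7a and let-7i the 5p levels of the 2 lines were within 1.16-fold of each other, so that the difference lay mainly in the 3p arm.

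Shifts of arm ratio of this size were common among miRNAs. With 0.5 read added to each arm and at least 100 reads of both arms in each library, 3 of the 8 letters (a, g and i) shifted by at least 2-fold between C643 and ES-2, beside 53.4% of the 118 miRNA pairs tested. Between Huh-7 and ES-2, 4 of 5 letters did (a, c, f and g), beside 42.3% of 104 pairs, and between Huh-7 and C643, 3 of 5 (c, f and g), beside 62.6% of 139. The calls for c, f and g rest on 0 or 1 read of the 3p arm in at least 1 of the libraries. Between Huh-7 and ES-2, where neither held a read of let-7g-3p, the call for g reflects the added read only, and the call for a was lost when 1 locus per mature miRNA was counted. When at least 4 reads of each arm were required in each library and none was added, which was chosen after the data had been seen, 2 of 7 letters (a and i) shifted between C643 and ES-2, beside 41.9% of pairs. For Huh-7, 1 of 2 (a) shifted against ES-2, beside 29.2%, and 0 of 2 against C643, beside 58.3%. The let-7 letters did not exceed the other miRNAs in the first comparison by either rule.

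Huh-7 and ES-2 differed in both directions. Per 5p read, let-7a had 2.05 times as many 3p reads in Huh-7 as in ES-2 (1.45 to 2.89), whereas let-7e had 0.525 times as many (0.283 to 0.975). let-7d (1.09) and let-7f (0.249, 0.0332 to 1.86) had intervals that included 1. Against C643, all 4 letters with an estimate included 1, with 0.852 for let-7a (0.614 to 1.18), 0.728 for let-7d, 0.681 for let-7e and 0.222 for let-7f. For let-7a this stands beside a level of let-7a-5p that was 28.3-fold lower in Huh-7 than in C643.

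In the a and f letters, the 3p arms separate MIRLET7A2 from MIRLET7A1 and MIRLET7A3 together, and MIRLET7F1 from MIRLET7F2, which the shared 5p sequences do not. let-7a-2-3p made up 5.90% of the let-7a 3p reads in C643 (5.25% to 6.63%) and 20.7% in ES-2 (16.6% to 25.4%). In Huh-7 it was 0 of 36 reads, which has a Wilson upper bound of 9.64%. Per read of let-7a-5p, let-7a-3p was 2.85 times as frequent in C643 as in ES-2 (2.52 to 3.23), whereas let-7a-2-3p was 0.687 times as frequent (0.526 to 0.896). The C643 to ES-2 difference of the let-7a letter thus came from let-7a-3p, and let-7a-2-3p differed in the other direction. Both ratios divide by the let-7a-5p reads of all MIRLET7A hairpins together. For this letter, a different mix of hairpins and a different balance of the arms therefore cannot be told apart. For f, let-7f-2-3p made up 27.7% of the reads in C643 (22.9% to 33.1%) and 6 of 18 in ES-2 (33.3%, 16.3% to 56.3%), whose intervals overlap.

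Several let-7 hairpins lie in transcripts with other miRNAs, so their 3p arms were compared with the 3p arms of these neighbours. let-7e-3p was found at 0.0860 reads per read of miR-99b-3p for C643 (0.0767 to 0.0965), 0.126 for ES-2 (0.0845 to 0.188) and 0.0167 for Huh-7 (0.0102 to 0.0273). The ratio in Huh-7 was 7.57-fold lower than in ES-2 (4.01 to 14.3) and 5.16-fold lower than in C643 (3.11 to 8.57). Against miR-125a-3p the ratios were 0.258, 0.443 and 0.0627, so that Huh-7 was 7.05-fold lower than ES-2 (3.58 to 13.9) and 4.11-fold lower than C643 (2.44 to 6.92). The 5p arms also had their lowest ratios in Huh-7, with 1.84, 2.21 and 0.501 reads of let-7e-5p per read of miR-99b-5p and 1.57, 1.23 and 0.377 per read of miR-125a-5p. Against miR-125a-5p, C643 was 1.28-fold above ES-2 (1.23 to 1.32), the opposite order to that of the 3p arms. Beside its neighbours, let-7e was therefore lower in Huh-7 in both arms, although by level alone let-7e-5p was within 1.16-fold of ES-2. miR-99b-3p itself stood at 449 RPM for C643, 129 for ES-2 and 442 for Huh-7.

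**Figure D3:**
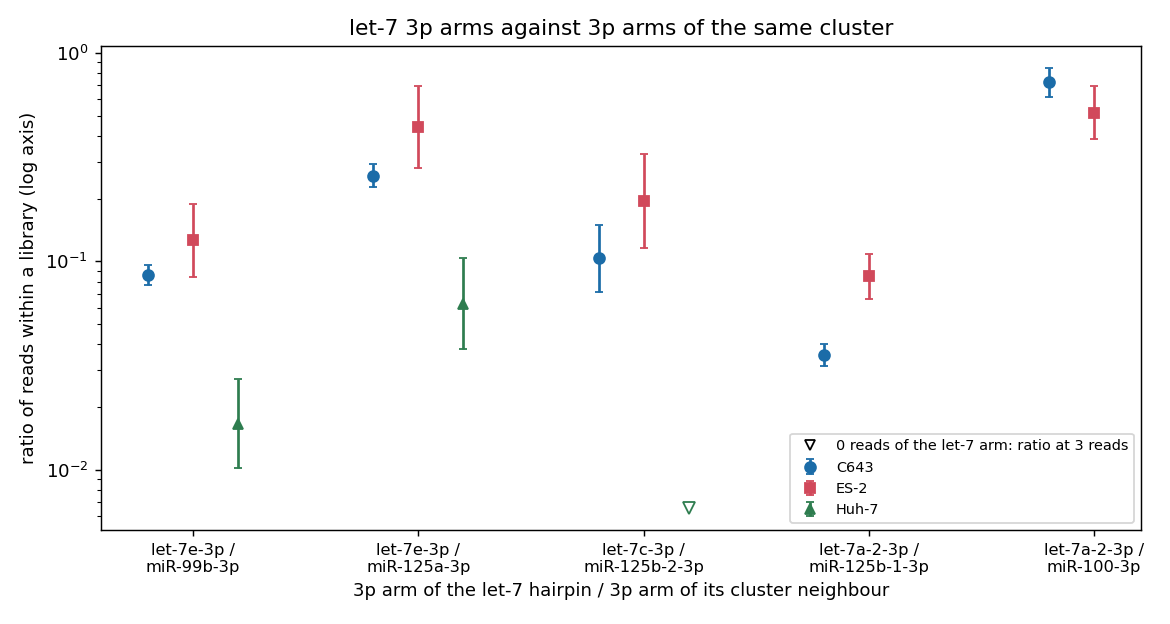
Reads of a let-7 3p arm per read of the 3p arm of a neighbour in the same transcript (log axis) within C643, ES-2 and Huh-7, with 95% intervals on the log scale. The open triangle marks 0 reads of let-7c-3p in Huh-7, drawn at 3 reads, and no value is drawn for let-7a-2-3p in Huh-7, where both arms had 0 reads. let-7e-3p and let-7c-3p are lowest beside their neighbours in Huh-7.

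The same was seen for let-7c-3p in the MIR99AHG transcript. It had 0.103 reads per read of miR-125b-2-3p in C643 (0.0714 to 0.150) and 0.195 in ES-2 (0.116 to 0.329), but none beside the 457 reads of miR-125b-2-3p in Huh-7, which allows a ratio of up to 0.00656. miR-125b-2-3p stood at 36.7 RPM for C643, 52.3 for ES-2 and 210 for Huh-7, and miR-99a-5p had 447, 1329 and 7508 reads. These products of the let-7c neighbours were more abundant in Huh-7, where let-7c-3p was not found. For let-7c-5p the direction differed by neighbour: it had 13.3, 2.10 and 0.235 reads per read of miR-99a-5p in C643, ES-2 and Huh-7, but 0.0793, 0.127 and 0.587 per read of miR-125b-5p, which is also made by the hairpin in MIR100HG. miR-125b-5p stood at 9178, 13240 and 1387 RPM.

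In MIR100HG, the 3p arms of the neighbours were missing from Huh-7 along with the let-7 arm. let-7a-2-3p had 0.723 reads per read of miR-100-3p in C643 (0.617 to 0.846) and 0.515 in ES-2 (0.384 to 0.690). The Huh-7 library held 0 reads of let-7a-2-3p, of miR-100-3p and of miR-125b-1-3p. miR-100-5p kept 868 reads in Huh-7, beside 333032 in C643 and 185512 in ES-2. Beside miR-125b-1-3p, let-7a-2-3p was 0.0356 in C643 and 0.0847 in ES-2, which is 2.38-fold higher in ES-2 (1.80 to 3.13), while beside miR-100-3p it was 1.40-fold higher in C643 (1.01 to 1.956). The direction of let-7a-2-3p within its transcript hence depended on the neighbour. let-7f-2-3p had 0.183 reads per read of miR-98-3p, a let-7 relative from the same HUWE1 intron, in C643 and 0.300 in ES-2 (0.120 to 0.747), and each had 1 read in Huh-7. Neither arm of miR-4763, which lies with MIRLET7A3 and MIRLET7B, had a read in any library.

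miR-98 has the let-7 seed and was read in the same way. Its 3p arm was 1.51% of both arms in C643 (1.38% to 1.66%), 0.793% in ES-2 (0.514% to 1.22%) and 1 of 70 reads in Huh-7. miR-98-5p stood at 3528 RPM for C643, 1504 for ES-2 and 31.7 for Huh-7. In C643 its 3p percent was above every let-7 letter but let-7d.

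The let-7 letters were then placed among all miRNA pairs with at least 100 reads of both arms in the library. The 3p arm was under 1% of both arms for 7 of 8 letters in C643, where this held for 25.8% of 194 pairs, for 7 of 8 in ES-2 (28.7% of 122 pairs) and for 5 of 5 in Huh-7 (25.5% of 161 pairs). let-7b, let-7d and let-7i had too few reads in Huh-7 to enter. The median 3p percent over the letters that entered was 0.333%, 0.255% and 0.0127%, beside 34.2%, 12.5% and 22.8% over all pairs. In 46.9%, 39.3% and 44.7% of pairs the 3p arm held most of the reads, which it did for none of the let-7 letters. let-7d, in contrast, lay in the middle: 93 of 194 pairs had a lower 3p percent in C643 and 66 of 122 in ES-2. The 3p percent of let-7g was above that of 28 of the 194 pairs in C643.

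**Figure D4:**
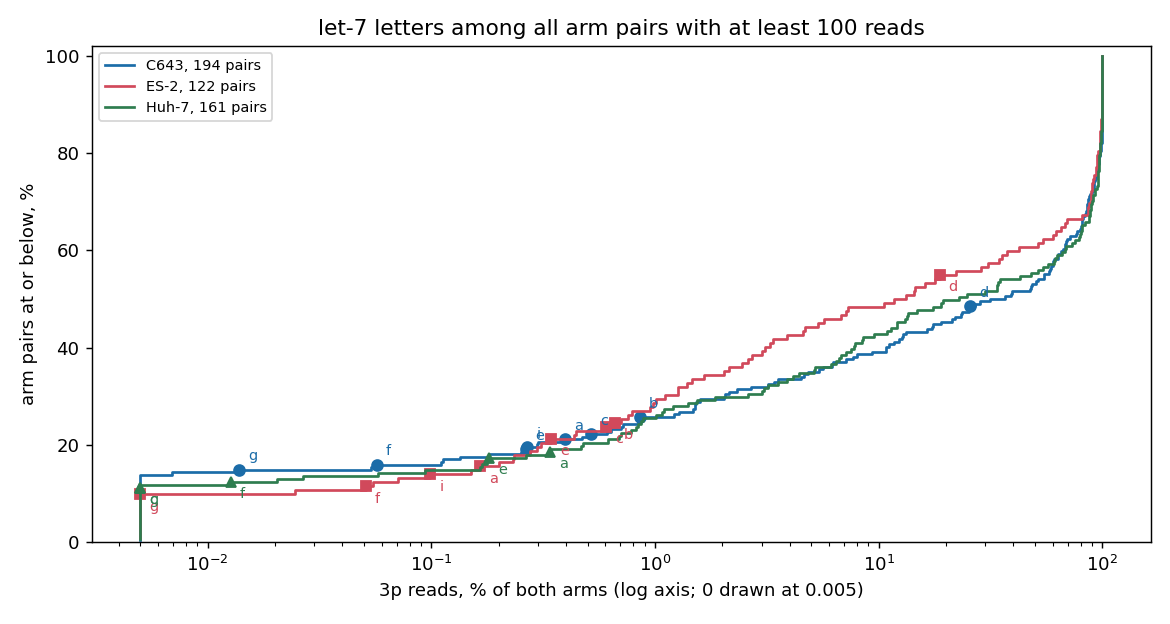
Share of miRNA arm pairs (y axis, %) at or below a given 3p percent of both arms (x axis, log scale, 0 drawn at 0.005) for pairs with at least 100 reads in C643 (194 pairs), ES-2 (122) and Huh-7 (161), with the let-7 letters marked on each curve. let-7d lies near the middle of its curves and the other letters in the lowest part.

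The loops between the arms were searched for GGAG, the letters to which the zinc knuckles of LIN28 proteins are known to bind. The search used the transcribed strand only, and the motif overlaps with no other motif searched. It was found in 8 of the 11 hairpins of let-7 and miR-98 that were searched (MIRLET7F2 was not). Of the 739 hairpins with both arms in RefSeq, 8.12% had it. Of the 62 with a loop of 23 to 36 bases, the range of the let-7 loops, 27.4% did. Both sets include the 11 let-7 and miR-98 hairpins, which supply 8 of the 17 hits in the set of 62. The loops of MIRLET7A3 and MIRLET7B, which lack GGAG as MIR98 does, are shown with that of let-7e. The let-7e loop is the only let-7 loop searched with 2 copies, and GGAG is in capitals.
MIRLET7A3 loop: uggggcucugcccugcuaugggauaa
MIRLET7B loop: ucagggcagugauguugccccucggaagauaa
MIRLET7E loop: gaGGAGgacacccaaGGAGauca
Among the letters with it, let-7i-5p was 1875-fold, let-7d-5p 121-fold, let-7g-5p 41.4-fold, let-7c-5p 2.06-fold and let-7e-5p 1.16-fold lower in Huh-7 than in ES-2, and let-7b-5p, without it, was 243-fold lower. The loops say only which letters are present, and LIN28 was not measured here.

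The names whose levels over the 3 libraries were most like the summed let-7 3p arms were sought among 178 other names with at least 1000 reads over the libraries, by distance between log2 levels after centring. With 3 libraries this is a description only. The nearest was miR-222-5p, with a distance of 0.54 and 1567, 186 and 6 reads in C643, ES-2 and Huh-7. miR-30c-2-3p (distance 0.70) had 3292, 325 and 22 reads, and miR-30a-3p (0.92) had 15957, 2739 and 72.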

How the data were processed

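Small RNA of the 3 lines was sequenced on an Illumina HiSeq instrument from libraries made with a NEXTflex kit. The authors deposited 2 tables of 2813 rows, named by mature miRNA and chromosome. Although named CPM, the deposited values are a signal, reads scaled by a library factor, whose columns summed to 959302 in C643, 1154550 in ES-2 (rounded) and 612015 in Huh-7. The design had assumed CPM. Per the submitters' processing notes, cutadapt 1.14, Bowtie2 2.3.3, SAMtools 1.5, featureCounts 1.5.3, edgeR 3.18.1 and hg38 were used; the treatment of reads that match several loci is not given in the sources used here. Dividing by the smallest value of a column gave whole reads for 100% of its values above 0, within 0.001 read, and 1 read was worth 0.117, 0.694 and 0.282 units.

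Rows of a name were summed, which concerned 167 of the 2588 names. Wilson intervals at 95% were computed for shares and log-normal intervals for ratios. Exact intervals replaced the latter for level ratios between lines with 1 to 3 reads in the lower line. Ratios of arms and of neighbours kept log-normal intervals even with 1 read. The level of 3 reads was used as the limit for 0 reads. With 1 library per line no p-value was computed. The named miRNAs were the let-7 arms, miR-98, miR-21, neighbours in a cluster and the 3 nearest patterns. The rule for the members uses names only, but the members and lists were chosen with earlier results of these data known. The counting of calls was checked on simulated reads; with 0.5 read added, it also made calls among unchanged pairs with few reads of an arm, so such calls are named as resting on few reads. Python 3.11.15, numpy 2.4.6, pandas 2.3.3, scipy 1.17.1 and matplotlib 3.10.9 were used.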

Additional observations from a re-analysis of the deposited data

How the results depend on the processing

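No paired analysis was possible because only 1 library of each line was analysed and no test was run. Of 63 values recomputed under alternatives, 42 stayed the same by the size of their interval or within 1.5-fold of a count, and 21 moved. Reversal of direction was not scored. With deposited values per 1000000, the summed let-7 3p share was 0.213% for C643, 0.0893% for ES-2 and 0.00175% for Huh-7. Without miR-21-5p in the denominator it was 0.311%, 0.108% and 0.00428%, and with 1 locus per mature miRNA it was 0.236% in C643. The order of the lines was kept under each.

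The 3p percent of both arms was 1.67% in C643 and 0.959% in ES-2 without the letters a and f, 1.12% and 0.635% with 1 locus per mature miRNA, and 0.333%, 0.255% and 0.00633% in C643, ES-2 and Huh-7 as the median over all 8 letters. Of the 3p arms, 1 was lower in C643 than in ES-2 at 2-fold in place of 4-fold. With a minimum of 100 RPM, 2 arms were at least 4-fold lower in Huh-7 than in ES-2, of 2 that passed, and 3 of 3 than in C643. These arms passed through ES-2 or C643 only, so their direction was fixed by the minimum. At a 4-fold shift of arm ratio, 1 letter was counted for C643 against ES-2 and 2 for Huh-7 against ES-2. With 4 or more reads of each arm, 1 was counted for Huh-7 against ES-2 and 0 against C643, as few letters remained to be counted. With 1 locus per mature miRNA, let-7a was no longer among the 3 letters counted for Huh-7 against ES-2. With the median miRNA ratio set to 0, the counts of arms at least 4-fold lower were 0, 7 and 7.

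Few reads limit the Huh-7 values: 62 reads carry all of its let-7 3p arms, although that library is deeper than the ES-2 library, and only for let-7c were more than 9 reads of a missing 3p arm to be counted at the arm ratio of the other lines. With 1 library per line, differences between lines cannot be told apart from differences between libraries.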

Other observations

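Over all miRNA pairs with at least 100 reads and a RefSeq sequence, the 3p percent of both arms differed with the first base of the 5p arm. Where the 5p arm began with U, as 7 of the let-7 5p arms do, the median 3p percent was 3.21% over 81 pairs in C643, 1.65% over 58 pairs in ES-2 and 3.04% over 66 pairs in Huh-7. Where it began with A, as let-7d-5p does, the median was 68.3% over 44 pairs, 90.1% over 27 and 81.5% over 38. High medians were not particular to A. They were 69.2%, 77.0% and 85.9% for C, and 99.6%, 96% and 95.5% for G, the latter over only 16, 5 and 11 pairs. let-7d, with 25.6%, 18.7% and 20%, lay below the medians of the pairs with A, C or G and above that of the pairs with U. Its Huh-7 value rests on 45 reads, under the limit of 100 set for the pairs. These are descriptions across pairs that share a library, and pairs are not replicates.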
